A study of Mus musculus with 13 samples.

Results

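Apelin, endothelin-1 and Cxcl12 are secreted vascular signals, and their ligand, receptor and processing genes were followed through mouse heart development at single-cell resolution. The set holds 9 genes, Apln, Aplnr, Edn1, Ednra, Ednrb, Ece1, Cxcl12, Cxcr4 and Ackr3, of the 27998 genes listed in every matrix. They were chosen by name for their roles, with earlier results of these data known, and each was found once by its symbol. The gene identifiers in the matrices were the same as those of the GENCODE annotation of GRCm38 for all 9 genes. There the ligand genes lie at chrX:48025146-48034853 on the reverse strand (Apln), chr13:42301476-42307990 on the forward strand (Edn1) and chr6:117168535-117181367 on the forward strand (Cxcl12). The receptor genes lie at chr2:85136225-85139923 on the forward strand (Aplnr), chr8:77663031-77724464 on the reverse strand (Ednra), chr14:103814625-103844402 on the reverse strand (Ednrb), chr1:128588199-128592293 on the reverse strand (Cxcr4) and chr1:90203980-90216751 on the forward strand (Ackr3), and the enzyme gene at chr4:137862237-137965229 on the forward strand (Ece1). Counts are per gene and do not separate exons or isoforms.

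Apelin, encoded by Apln, is a peptide that binds the G protein-coupled receptor Aplnr, and both are known for their part in the growth of new vessels. Endothelin-1 is made from the Edn1 precursor by the endothelin-converting enzyme Ece1, and it acts on muscle and mesenchyme mainly through Ednra, while Ednrb on endothelial cells also clears it. The chemokine Cxcl12 signals through Cxcr4, and the atypical receptor Ackr3 binds and removes the same chemokine. These axes are known to guide the coronary vessels as they grow over and through the heart wall.

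Wild-type C57Bl/6J mice were sampled at 6 stages, from embryonic day (E) 8.5 until the third day after birth (P3). The E8.5 and E10.5 libraries came from embryos with the head and limbs cut off, and the later ones from dissected hearts. No gene was altered and no agent was given. By the study's account hearts of different periods were collected in batches, so stage and collection batch cannot be told apart. E10.5, E12.5, E14.5 and E16.5 had 2 libraries each, E8.5 had 1 analysed here, and P3 was 1 matrix that pooled 2 wells. Transcripts were counted as unique molecular identifiers (UMIs), which mark single captured molecules, and a barcode stands for 1 droplet. A level is given as UMIs of a gene per 10000 UMIs of all genes in a class, and 2 values joined by "and" are replicates 1 and 2. These numbers follow the library names, since the sample titles give all libraries of a stage the same replicate number. Only barcodes with at least 2000 UMIs were used, 80741 in all, with a median depth of 10268 to 24516 UMIs per library. Any 2 libraries shared at most 2.42% of the barcodes of the smaller one.

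Cells were sorted into classes by gate genes that are not in the set. Tnnt2 marked cardiomyocytes, and Cdh5, a junction protein of endothelium, was combined with Npr3 for the endocardial class and with Fabp4 for the coronary class. Upk3b, Rgs5 and Col1a1 gave an epicardial, a mural and a fibroblast gate. Of the marker lists, summed levels per 10000 UMIs over the 6 heart libraries of E12.5 to E16.5 were 126 to 221 for the cardiomyocyte list in its class and 8.36 to 16.6 for the endocardial list in its class. Other lists spanned a wider range, from 7.36 to 87.8 for the vascular endothelial list in the coronary class, 6.03 to 26.7 for the mural list in the Rgs5 class and 22.1 to 112 for the fibroblast list in the Col1a1 class. The epicardial class held its own list at 15.5 to 29.99 and the fibroblast list at 26.7 to 149, and the Rgs5 class held the fibroblast list at 17.2 to 40.9. The part of these markers in the stage changes of those classes was not tested. The median level of 7 of 7 cardiomyocyte, 5 of 6 endocardial, 6 of 7 vascular endothelial, 6 of 6 epicardial, 7 of 7 mural and 5 of 7 fibroblast markers was highest in the class they stand for. Each list holds a gate gene of its own class (Tnnt2, Npr3, Fabp4, Upk3b, Rgs5 or Col1a1). These counts and the summed levels are thus in part set by the gates.

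The label of the Rgs5 gate did not hold at E12.5. There the pericyte channel gene Kcnj8 was at 0.0399 to 0.0899 and the pericyte gene Higd1b was at or near 0, against 4.39 to 4.55 and 4.22 to 4.31 at E16.5, so these cells are called the Rgs5 class here. The coronary class was small at E12.5, with 22 and 21 barcodes, and its capillary gene Cd36 was at 0.0374 to 0.127 at E12.5 and 3.64 to 4.00 at E16.5. The coronary label is thus less sure at E12.5 than at E16.5. This class held 131 and 132 barcodes in the E14.5 hearts, 168 and 135 in those of E16.5 and 329 in the P3 matrix. The endocardial class held between 119 and 422 barcodes per heart library. Barcodes with at least 10% globin UMIs formed an erythroid class, used as cells that should lack most of these genes.

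The sequence just before the RefSeq start of 4 genes is shown, 2 from genes highest in the coronary class (Apln and Cxcr4) and 2 from genes highest in the endocardial class (Ednrb and Ackr3). Each run is the 250 bases before the RefSeq start on GRCm38.p6, 5′ to 3′ on the strand of the gene. For Ednrb the RefSeq and GENCODE starts differ, and its run lies inside the gene as placed above. Capitals mark GGAA or TTCC, the core bound by ETS factors, a family known for its part in endothelial genes, on either strand.
Apln (chrX:48034854-48035103, reverse strand): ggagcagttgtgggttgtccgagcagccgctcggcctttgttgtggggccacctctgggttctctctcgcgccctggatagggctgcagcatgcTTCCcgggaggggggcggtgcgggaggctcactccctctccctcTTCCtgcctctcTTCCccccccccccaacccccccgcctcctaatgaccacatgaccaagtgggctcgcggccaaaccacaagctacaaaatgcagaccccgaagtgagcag
Cxcr4 (chr1:128592300-128592549, reverse strand): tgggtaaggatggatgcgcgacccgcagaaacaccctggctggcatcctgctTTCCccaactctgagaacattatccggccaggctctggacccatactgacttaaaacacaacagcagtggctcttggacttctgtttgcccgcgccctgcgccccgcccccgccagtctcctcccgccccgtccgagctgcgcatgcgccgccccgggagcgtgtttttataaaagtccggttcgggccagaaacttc
Ednrb (chr14:103843702-103843951, reverse strand): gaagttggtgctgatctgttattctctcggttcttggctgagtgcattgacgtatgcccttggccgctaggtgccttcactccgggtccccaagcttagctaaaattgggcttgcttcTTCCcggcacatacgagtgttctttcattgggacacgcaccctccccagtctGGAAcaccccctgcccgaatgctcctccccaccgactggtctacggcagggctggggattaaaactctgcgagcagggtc
Ackr3 (chr1:90203730-90203979, forward strand): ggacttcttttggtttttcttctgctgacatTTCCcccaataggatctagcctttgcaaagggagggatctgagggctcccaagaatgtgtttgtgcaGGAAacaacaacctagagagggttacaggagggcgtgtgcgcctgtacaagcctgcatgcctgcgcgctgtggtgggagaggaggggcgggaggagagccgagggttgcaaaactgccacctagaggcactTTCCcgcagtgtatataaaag
The core occurred 3 times before Apln, 1 time before Cxcr4, 2 times before Ednrb and 3 times before Ackr3. Of 32851 RefSeq promoters of the same length, 93.4% held at least 1, with a median of 3. The counts before these 4 genes were thus at or below the median. TATAAA or its reverse complement TTTATA was also held by the Ackr3 and Cxcr4 runs, and by 12.4% of the promoters.

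**Figure D1:**
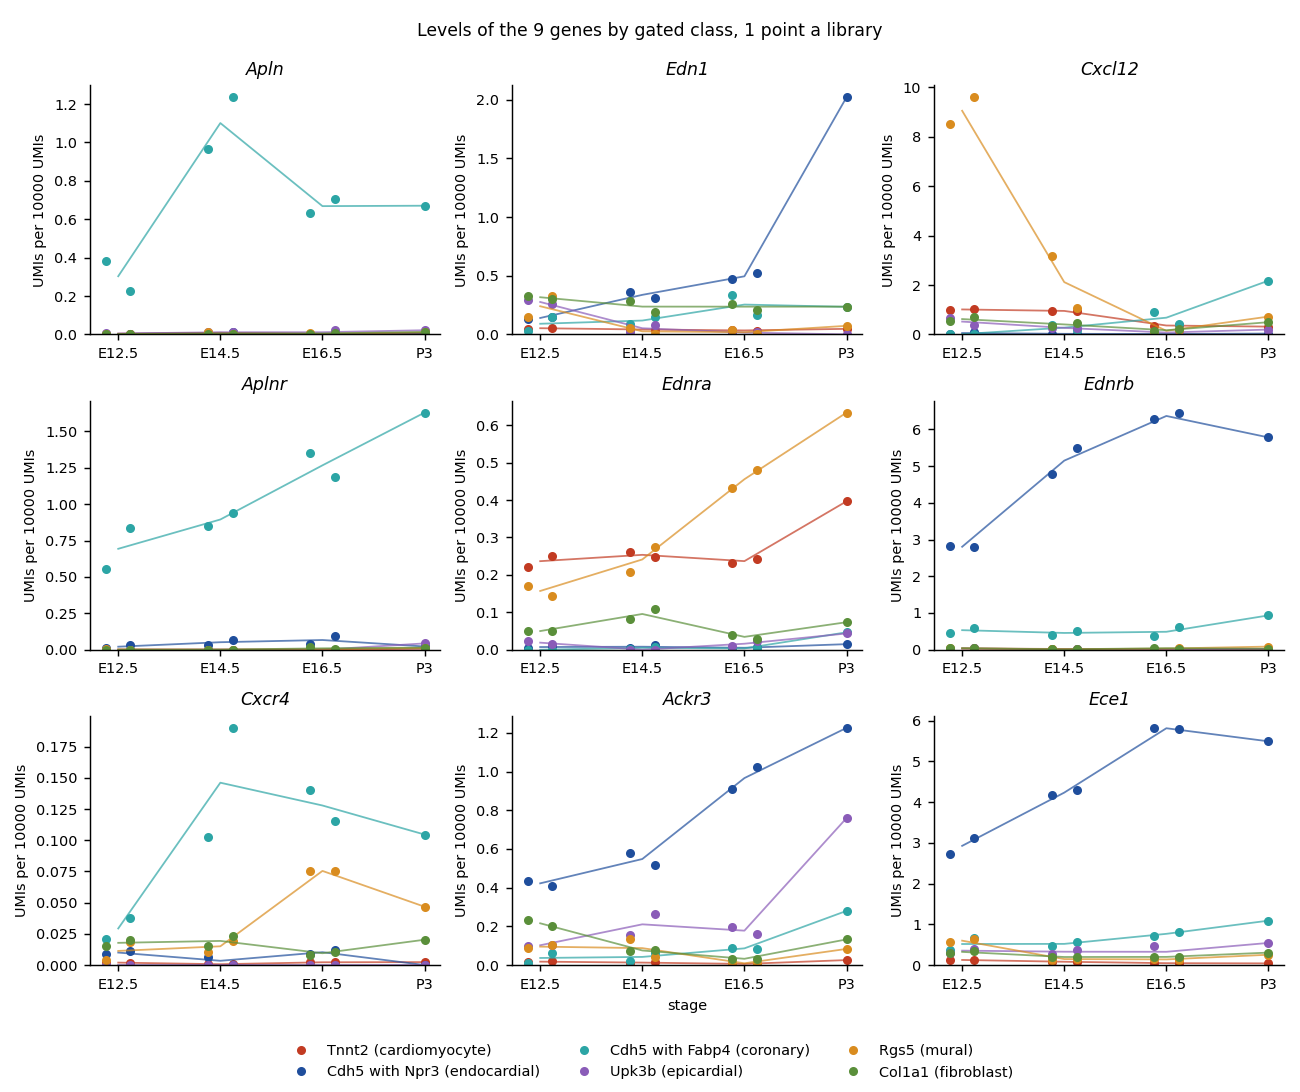
Levels of the 9 genes (y axis, UMIs per 10000 UMIs, each panel on its own scale) by stage (x axis) in 6 gated classes. Each point is 1 library (the P3 point is the pooled matrix) and lines join stage means, with Apln and Aplnr high in the coronary class, Ednrb, Ece1 and Ackr3 high in the endocardial class, and Cxcl12 at 8.51 and 9.60 in the Rgs5 class at E12.5.

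Apln, the apelin precursor gene, was largely a coronary transcript in the heart. In the coronary class it was at 0.382 and 0.224 in the E12.5 hearts, 0.967 and 1.24 in those of E14.5, and 0.631 and 0.706 in those of E16.5. The pooled P3 value was 0.670 (95% Poisson interval 0.623 to 0.720). The E14.5 and E16.5 values thus all lay above both E12.5 libraries. At P3 the first well, at 0.248, lay between the E12.5 libraries and the second, at 1.09, above both. The 6 endocardial sums together held 7 Apln UMIs in 26382201, against 1132 in 14001811 coronary UMIs. That is a ratio of 305 with a 95% counting interval of 147 to 759.6.

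The coronary class supplied 74.7% and 85.2% of all Apln UMIs of the E14.5 hearts, 82.1% and 78.4% of those of E16.5 hearts and 82.0% at P3. At E12.5 it supplied 50% and 19.1%, and cardiomyocytes as a class supplied 27.8% and 27.7%. The cardiomyocyte level was 0.00286 to 0.00963 over the 6 heart libraries, within the 0 to 0.0133 of erythroid barcodes. Medians over these libraries were 0.00397 in cardiomyocytes and 0.00131 in erythroid barcodes. After each barcode was thinned to 2000 UMIs, 13.0% and 15.2% of coronary barcodes of the E14.5 hearts and 14.9% and 11.1% of those of E16.5 had an Apln UMI. Without thinning these shares were 48.1% and 51.5%, and 47.0% and 42.2%. In erythroid barcodes of all 6 heart libraries of E12.5 to E16.5 the thinned share was at most 0.275%. Median depths over these 6 were 11792 to 30514 UMIs, against 14266 to 37862 in the coronary class.

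Edn1, the endothelin-1 precursor gene, was found in several classes. Cardiomyocytes supplied 19.3% to 32.2% of its UMIs over the 6 heart libraries, at a level of 0.0325 to 0.0576, beside 0.00222 to 0.0188 in erythroid barcodes. Each of the 6 levels in the endocardial and Col1a1 classes lay above those of cardiomyocytes. In the endocardial class it was at 0.135 and 0.145 in the E12.5 hearts, 0.360 and 0.314 in those of E14.5, and 0.469 and 0.521 in those of E16.5, and every E16.5 value lay above every E12.5 value. The P3 value was higher again, at 2.02 (95% Poisson interval 1.85 to 2.20). It was 1.60 in the first well and 2.93 in the second. In the Col1a1 class Edn1 was at 0.329 and 0.305 in the E12.5 hearts, 0.284 and 0.190 in those of E14.5, and 0.263 and 0.209 in those of E16.5. The E14.5 and E16.5 values overlapped there, and both stages lay just below E12.5.

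In the epicardial class Edn1 went the other way, at 0.290 and 0.263 in the E12.5 hearts, 0.0209 and 0.0840 in those of E14.5, and 0.00938 and 0.0226 in those of E16.5. Cdh5 barcodes with neither Npr3 nor Fabp4 held more Edn1 than the endocardial class in each heart library, at 0.439 and 0.584 in the E12.5 hearts, 0.553 and 0.617 in those of E14.5, and 1.38 and 0.779 in those of E16.5. At P3 that order was turned, with 0.185 in 21 such barcodes. A subset of Col1a1 barcodes with a UMI of Tcf21, a fibroblast transcription factor, was looked at after the levels were seen. It held Edn1 at 0.684 and 0.805 at E14.5, above Col1a1 barcodes with a UMI of the valve and cartilage factor Sox9, at 0.169 and 0.0642. At E16.5 the same subsets were at 0.331 and 0.193, and 0.248 and 0.114, and their ranges overlapped.

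Cxcl12, the chemokine ligand, changed the class with its top level between stages, while cardiomyocytes supplied most of its UMIs from E12.5 to E16.5. At E12.5 the Rgs5 class had the top level of the 6 classes, and there it was at 8.51 and 9.60 in the E12.5 hearts, 3.16 and 1.08 in those of E14.5, and 0.113 and 0.177 in those of E16.5. The fall was larger than any difference between replicates. Cardiomyocytes held about 1 UMI per 10000 until E14.5 and less later, at 0.985 and 1.04 in the E12.5 hearts, 0.946 and 0.956 in those of E14.5, and 0.349 and 0.371 in those of E16.5. As a class they supplied between 59.0% and 87.5% of all Cxcl12 UMIs in the 6 heart libraries, with 61.1% and 59.0% at E12.5 and 80.6% and 81.3% at E16.5. At P3 they supplied 46.3%.

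The coronary class gained Cxcl12, at 0.0212 and 0 in the E12.5 hearts, 0.380 and 0.169 in those of E14.5, and 0.916 and 0.438 in those of E16.5. The 2 E12.5 libraries held 2 UMIs in all against 433 at E16.5, a ratio of 63.1 with a 95% counting interval of 17.4 to 523. At P3 the level was 2.18 (95% Poisson interval 2.09 to 2.26), which was the top level of the 6 classes at that stage. Of the P3 coronary barcodes, 73 of 329 (22.2%) passed another gate, against at most 4.55% in the 6 heart libraries. The class held the mural list at 3.69 at P3, against 0.0997 to 1.29 in those libraries. The part of these barcodes in the P3 level was not tested. In the endocardial class Cxcl12 ranged from 0.0121 to 0.0864 over the 6 heart libraries, around the 0.0165 to 0.0486 of erythroid barcodes, and the coronary class lay above it in every library from E14.5 but in neither of E12.5.

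The makeup of the Rgs5 class moved with the Cxcl12 fall. Kcnj8 in it was near 0 at E12.5 and above 4 at E16.5, as given above, and 105 of 144 and 157 of 195 of its E12.5 barcodes passed another gate too. At E14.5 these were 54 of 73 and 27 of 46, and at E16.5 61 of 162 and 45 of 118. Rgs5 barcodes without a Kcnj8 UMI, a subset taken after the levels were seen, held Cxcl12 at 8.61 and 9.82 in the E12.5 hearts, 4.85 and 1.53 in those of E14.5, and 0.114 and 0.335 in those of E16.5. E16.5 thus lay below E12.5 without overlap in these barcodes too. The part of the class makeup in the fall was not tested.

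Within cardiomyocytes Cxcl12 followed a chamber split that was also chosen after the levels were seen. Barcodes with more UMIs of the ventricular gene Myl2 than of the atrial gene Sln held 1.01 and 1.06 at E12.5 and 0.995 and 0.990 at E14.5. Barcodes with more Sln held 0.0879 and 0.155, and 0.142 and 0.207. By E16.5 the groups had drawn closer, with 0.363 and 0.387 against 0.178 and 0.192.

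**Figure D2:**
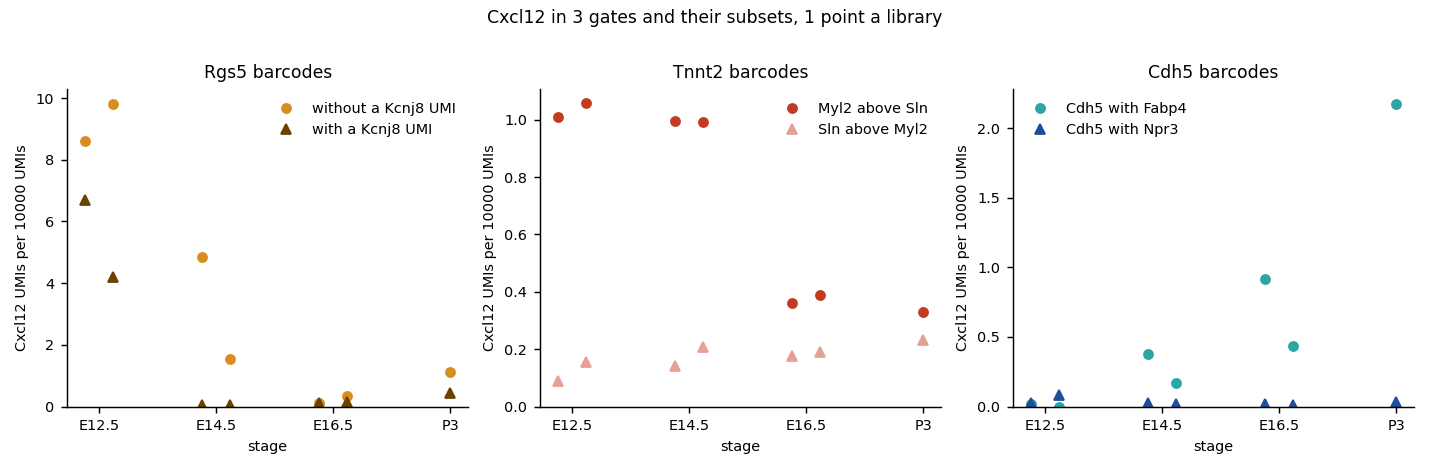
Cxcl12 (y axis, UMIs per 10000 UMIs, each panel on its own scale) by stage (x axis), 1 point a library, in Rgs5 barcodes without and with a Kcnj8 UMI (left), in Tnnt2 barcodes with more Myl2 or more Sln (middle), and in the coronary and endocardial classes (right). Rgs5 barcodes without Kcnj8 go from 8.61 and 9.82 at E12.5 to 0.114 and 0.335 at E16.5, while the coronary class reaches 2.18 at P3.

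Among the receptors, Aplnr, the apelin receptor gene, was found in the same class as its ligand. In the coronary class it was at 0.551 and 0.835 in the E12.5 hearts, 0.853 and 0.936 in those of E14.5, and 1.35 and 1.18 in those of E16.5, with 1.63 (95% Poisson interval 1.55 to 1.71) at P3, and both E16.5 values lay above both E12.5 values. In the endocardial class it stayed between 0.0122 and 0.0908 over the 6 heart libraries, and the groups did not overlap in any library. In the coronary class the P3 wells lay on either side of both E16.5 values, as given below. The thinned share of coronary barcodes with an Aplnr UMI was 16.8% and 16.7% in the E14.5 hearts, 23.2% and 15.6% in those of E16.5 and 21.6% at P3. The unthinned shares were 48.9% and 53.8%, 56.0% and 52.6%, and 73.9%, and erythroid barcodes of the 6 heart libraries reached at most 0.131% after thinning.

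Ednra, the endothelin receptor of muscle and mesenchyme, was a cardiomyocyte and Rgs5 transcript and was nearly missing from endothelium. In cardiomyocytes it was at 0.222 and 0.251 in the E12.5 hearts, 0.260 and 0.247 in those of E14.5, and 0.232 and 0.242 in those of E16.5, with 0.397 (95% Poisson interval 0.385 to 0.409) at P3. Cardiomyocytes supplied between 88.8% and 91.7% of all Ednra UMIs in the 6 heart libraries. The endocardial class held 18 Ednra UMIs and the coronary class 5 over these libraries, too few for the test between them. In the Rgs5 class Ednra was at 0.171 and 0.143 in the E12.5 hearts, 0.208 and 0.274 in those of E14.5, and 0.432 and 0.479 in those of E16.5, so it moved from below the cardiomyocyte level at E12.5 to above it at E16.5. Among cardiomyocytes, barcodes with more Sln held 0.738 and 0.515 at E12.5 and 0.379 and 0.468 at E16.5. Those with more Myl2 held 0.210 and 0.243, and 0.220 and 0.222. The chamber order of Ednra was thus the reverse of that of Cxcl12.

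Ednrb, the endothelin receptor of endothelial cells, was an endocardial transcript. It was at 2.81 and 2.79 in the E12.5 hearts, 4.80 and 5.50 in those of E14.5, and 6.28 and 6.46 in those of E16.5, with 5.78 (95% Poisson interval 5.50 to 6.08) at P3. The 3 stages did not overlap. The coronary class was at 0.467 and 0.598 in the E12.5 hearts, 0.406 and 0.507 in those of E14.5, and 0.362 and 0.615 in those of E16.5, with no order by stage beyond the spread of replicates. Of endocardial barcodes thinned to 2000 UMIs, 39.5% and 36.7% had an Ednrb UMI at E12.5 and 65.6% and 65.6% at E16.5. The unthinned shares were 91.0% and 93.4%, and 96.3% and 89.3%, and the erythroid class stayed at or below 0.604% after thinning.

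Cxcr4, the signalling receptor of Cxcl12, was low everywhere. Its coronary level was 0.0212 and 0.0374 in the E12.5 hearts, 0.102 and 0.190 in those of E14.5, and 0.140 and 0.116 in those of E16.5, and the E12.5 libraries rested on 5 UMIs in all. The endocardial class held 24 UMIs over 6 libraries, 13.5-fold fewer per UMI than the coronary class (95% counting interval 8.78 to 21.7). In the Rgs5 class Cxcr4 was at 0.00399 and 0.0186 in the E12.5 hearts, 0.0104 and 0.0196 in those of E14.5, and 0.0751 and 0.0757 in those of E16.5. Macrophage-gated C1qb barcodes at P3 held 0.301, above the coronary value of 0.105.

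Ackr3, the scavenger of Cxcl12, lay with Ednrb rather than with Cxcr4. In the endocardial class it was at 0.435 and 0.409 in the E12.5 hearts, 0.581 and 0.515 in those of E14.5, and 0.909 and 1.02 in those of E16.5, with 1.23 (95% Poisson interval 1.10 to 1.37) at P3, and E16.5 lay above E12.5 without overlap. The P3 wells lay on either side of these E16.5 values, as given below. The coronary class was lower in every library, at 0.0106 and 0.0623 in the E12.5 hearts, 0.0204 and 0.0633 in those of E14.5, and 0.0897 and 0.0826 in those of E16.5. The epicardial class was at 0.0999 and 0.104 in the E12.5 hearts, 0.157 and 0.264 in those of E14.5, and 0.197 and 0.158 in those of E16.5, and 0.759 at P3. In the Col1a1 class Ackr3 fell, at 0.230 and 0.201 in the E12.5 hearts, 0.0745 and 0.0758 in those of E14.5, and 0.0310 and 0.0334 in those of E16.5. Erythroid barcodes at E12.5 held 0.192 and 0.155, against at most 0.0111 at E14.5 and E16.5, so the E12.5 erythroid class could not serve as background for this gene.

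Ece1, the converting enzyme, had UMIs in all classes and was highest in the endocardial class. There it was at 2.72 and 3.13 in the E12.5 hearts, 4.17 and 4.30 in those of E14.5, and 5.82 and 5.80 in those of E16.5, with 5.49 (95% Poisson interval 5.22 to 5.78) at P3. The coronary class was at 0.371 and 0.660 in the E12.5 hearts, 0.464 and 0.574 in those of E14.5, and 0.715 and 0.817 in those of E16.5. Cardiomyocytes were lower and fell, at 0.121 and 0.128 in the E12.5 hearts, 0.0815 and 0.0795 in those of E14.5, and 0.0469 and 0.0439 in those of E16.5. Their E16.5 values lay within the 0.00784 to 0.0560 of erythroid barcodes over the 6 heart libraries. After thinning, 40% and 49.5% of endocardial barcodes at E12.5 and 67.5% and 65.6% at E16.5 had an Ece1 UMI. The unthinned shares were 96.7% and 98.1%, and 97.5% and 95.4%, and the thinned share of erythroid barcodes reached 0.665% in the highest of the 6 libraries.

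The coronary and endocardial classes were then compared within libraries, with UMI counts summed per class and library and tested with edgeR (quasi-likelihood F test, with p adjusted by Benjamini-Hochberg across every gene in the fit). Both classes come from 1 suspension in each library, so the library was a block. Of the 9 genes, 8 were tested and all 8 passed at an adjusted p under 0.05. The classes differed widely, since 51.8% of 10564 genes passed (26.4% higher and 25.4% lower), so the share alone says little about these 8. On the log2 scale Apln was higher in the coronary class by 7.48 ± 0.24 (SE, adjusted p = 4.3e-11) and Aplnr by 4.73 ± 0.19 (SE, adjusted p = 3.2e-10). Cxcr4 was higher by 3.31 ± 0.42 (SE, adjusted p = 1.6e-05) and Cxcl12 by 2.91 ± 0.59 (SE, adjusted p = 9.7e-04). Lower in the coronary class were Ackr3 with -3.45 ± 0.20 (SE, adjusted p = 8.5e-09), Ednrb with -3.18 ± 0.18 (SE, adjusted p = 8.0e-09), Ece1 with -2.73 ± 0.11 (SE, adjusted p = 2.5e-10) and Edn1 with -1.01 ± 0.23 (SE, adjusted p = 0.0021). The median over the 8 genes was 0.95, against -0.03 over all genes tested.

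A list of other genes of these pathways split evenly. Of 16 tested of 21, 6 were higher in the coronary class and 6 lower, with a median of 0.02. Higher were Adm, the adrenomedullin peptide gene (5.32), and Gnai2, an inhibitory G protein subunit (1.11). Lower were Dpp4, a peptidase that trims Cxcl12 (-4.87), and Ramp2, a partner of the adrenomedullin receptor (-1.21). Tip cell genes, known from the leading cells of sprouting vessels, were higher for 8 of 12 and lower for 1, with Esm1 at 7.46, Kcne3 at 7.66, Nid2 at 3.22 and Adm as given. Arterial genes were higher for 6 of 10 and lower for 1, venous genes higher for 2 of 6 and lower for 4, and cell cycle genes higher for 8 of 10.

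The change from E12.5 to E16.5 differed between the 2 endothelial classes for 2 of the 8 genes, while 9.11% of 10564 genes passed this interaction test (5.11% higher and 3.99% lower). Cxcl12 changed more in the coronary class, with a difference of log2 changes of 7.51 ± 0.72 (SE, adjusted p = 6.5e-10), which ranged from 5.24 with 30% free RNA to 13.25 without E12.5 replicate 1, where the remaining E12.5 coronary sum held no Cxcl12 UMI. Ednrb changed less there, with a difference of -1.36 ± 0.22 (SE, adjusted p = 2.7e-05). The other 6 genes did not pass, and of these Apln had the widest error, 3.85 ± 2.09, and its endocardial counts were near 0.

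Within the endocardial class, 5 of the 9 genes were tested between E16.5 and E12.5, and all 5 rose, where 43.2% of 10053 genes passed in either direction (20.8% higher and 22.3% lower). Edn1 rose by 1.64 ± 0.16 (SE, adjusted p = 5.3e-09), Ackr3 by 1.02 ± 0.12 (SE, adjusted p = 2.1e-07), Ednrb by 1.01 ± 0.09 (SE, adjusted p = 3.0e-09) and Ece1 by 0.82 ± 0.09 (SE, adjusted p = 7.8e-08) on the log2 scale. Aplnr rose by 1.38 ± 0.47 (SE, adjusted p = 0.02) from a level near 0, and this call was lost without E12.5 replicate 1 (0.93, adjusted p = 0.17) or E16.5 replicate 2 (0.82, adjusted p = 0.37), and with DESeq2 (1.45, adjusted p = 0.083). Over the same stages 8 of 10 cell cycle genes fell in this class, while in the coronary class 7 fell and 1 rose.

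Within the coronary class, 8 genes were tested and 5 rose, where 29.5% of 9591 genes passed in either direction (13.8% higher and 15.7% lower). Cxcl12 rose by 5.75 ± 0.82 (SE, adjusted p = 2.7e-05) and Cxcr4 by 2.04 ± 0.59 (SE, adjusted p = 0.013). Edn1 rose by 1.49 ± 0.51 (SE, adjusted p = 0.033), Apln by 0.99 ± 0.24 (SE, adjusted p = 0.0035) and Aplnr by 0.77 ± 0.18 (SE, adjusted p = 0.0032). Ednrb (-0.27 ± 0.25), Ece1 (0.47 ± 0.22) and Ackr3 (1.20 ± 0.67) did not pass. In the same fit 9 of 10 arterial genes rose, with Unc5b, an arterial netrin receptor, at 2.22 and the arterial gap junction gene Gja4 at 2.58.

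Several of these coronary calls rest on the 43 barcodes of E12.5. Their median depth was 37862 and 32921 UMIs, against 16312 and 14266 in coronary barcodes of E16.5. Endocardial barcodes of the E12.5 hearts had 18703 and 19718. The part of depth in the coronary stage changes and in the interaction was not tested. The Apln call was lost without E12.5 replicate 2 (0.69, adjusted p = 0.07). Without E12.5 replicate 1 the calls of Aplnr (0.47, adjusted p = 0.11), Edn1 (0.69, adjusted p = 0.43) and Cxcr4 (1.65, adjusted p = 0.15) were lost. Edn1 (0.81, adjusted p = 0.30) and Cxcr4 (1.83, adjusted p = 0.057) were also lost without E16.5 replicate 1. With 30% of UMIs allowed as free RNA, Apln was at 0.11 (adjusted p = 0.80), Aplnr at 0.51 (adjusted p = 0.067), Edn1 at 1.09 (adjusted p = 0.23) and Cxcr4 at 1.87 (adjusted p = 0.078), so none of these 4 passed. With DESeq2 Edn1 (1.39, adjusted p = 0.089) and Cxcr4 (2.01, adjusted p = 0.056) were lost. Edn1 was lost with single-gate barcodes as well (1.31, adjusted p = 0.055). The Cxcl12 call held under each of these, but its size did not, at 2.87 with 30% free RNA and 10.496 without E12.5 replicate 1. The latter sets E16.5 against a lone library with no Cxcl12 UMI and is not a measure of the fold.

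In cardiomyocytes, where 62.7% of 14183 genes passed (31.9% higher and 30.8% lower), 6 of 8 genes passed. Cxcl12 fell by 1.33 ± 0.06 (SE, adjusted p = 3.7e-10) and Ece1 by 1.29 ± 0.08 (SE, adjusted p = 7.4e-09) on the log2 scale. Edn1 (-0.47), Ednrb (-1.13) and Ackr3 (-1.47) also fell, Ednrb from E12.5 levels below those of erythroid barcodes in the same libraries. Cardiomyocyte Ackr3 was at most 0.0211 in any heart library tested, and for this gene the E12.5 erythroid class could not serve as background, as given above. Ednra had a small rise of 0.16 ± 0.07 (SE, adjusted p = 0.048), and leaving out any single heart library other than E12.5 replicate 2 ended that call, with changes of 0.09 to 0.18 and adjusted p of 0.079 to 0.25. It was lost under 11 of 14 alternatives in all, among them a floor of 5000 UMIs, 30% free RNA, single-gate barcodes, RLE size factors, DESeq2 and no filter, with adjusted p of 0.053 to 0.18 for these 6.

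In the Rgs5 class, where 34.1% of 9496 genes passed (17.5% higher and 16.6% lower), 6 of 6 tested genes passed. Cxcl12 fell by 5.94 ± 0.28 (SE, adjusted p = 1.4e-14), Edn1 by 3.22 ± 0.55 (SE, adjusted p = 4.7e-05), Ackr3 by 3.20 ± 0.64 (SE, adjusted p = 3.0e-04) and Ece1 by 2.00 ± 0.21 (SE, adjusted p = 3.7e-08). Ednra rose by 1.64 ± 0.21 (SE, adjusted p = 7.4e-07) and Cxcr4 by 2.67 ± 0.60 (SE, adjusted p = 0.0011). The Edn1 and Cxcr4 calls were lost with DESeq2 (-3.49, adjusted p = 0.27, and 2.78, adjusted p = 0.056). The pericyte genes that differed between the same stages are given above, and their part in these changes was not tested.

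In the epicardial class, 2 of 4 tested genes passed, beside 29.5% of 8054 genes (16.3% higher and 13.2% lower). Edn1 fell by 4.31 ± 0.60 (SE, adjusted p = 1.5e-06), from 237 UMIs at E12.5 to 2 at E16.5, and Cxcl12 by 3.08 ± 0.42 (SE, adjusted p = 8.5e-07). The share of epicardial barcodes that also passed another gate was 75.7% and 72.9% in the E12.5 hearts, 89.7% and 90.4% in those of E14.5, and 96.9% and 100% in those of E16.5, and its part in these falls was not tested. In the Col1a1 class 3 of 7 genes passed, beside 45.6% of 12134 genes (24% higher and 21.6% lower), and all 3 fell, Ackr3 by 2.55, Cxcl12 by 1.74 and Ece1 by 0.52 on the log2 scale. Cxcl12 thus passed as lower at E16.5 in the cardiomyocyte, epicardial, Rgs5 and Col1a1 classes and as higher in the coronary class.

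**Figure D3:**
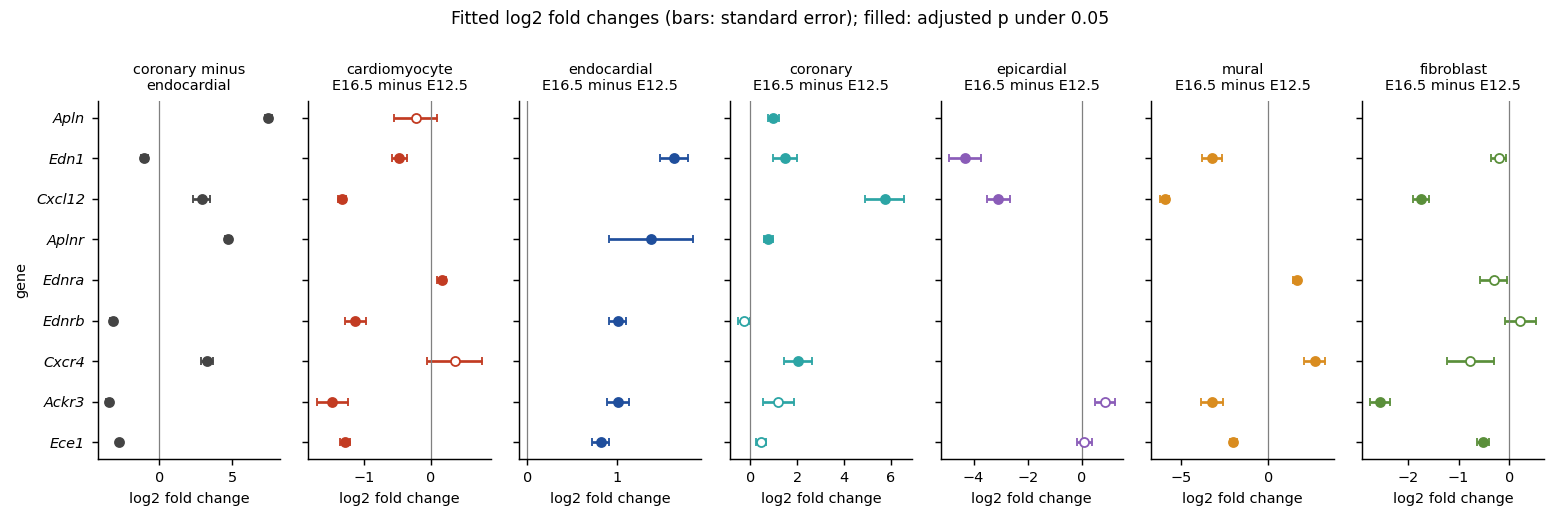
Fitted log2 fold changes (x axis, each panel on its own scale) with standard errors for the tested genes (y axis), for coronary minus endocardial (left panel) and for E16.5 minus E12.5 in 6 classes. Filled points passed at an adjusted p under 0.05, and the 5 genes tested in the endocardial class all lie above 0 while Cxcl12 lies at -5.94 in the Rgs5 (mural) panel and at 5.75 in the coronary panel.

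Each class was also set against the mean of the fitted log2 levels of the other 5, a contrast in which classes with almost no counts pull the mean down. Of 9 genes, 5 were higher and 1 lower in the coronary class, beside 59.6% of 12406 genes passing (28.2% higher and 31.4% lower), with Aplnr at 8.90 ± 0.24 and Apln at 7.34 ± 0.17. In the endocardial class 5 were higher and 3 lower, beside 54.7% (27% higher and 27.7% lower), with Ednrb at 6.63 ± 0.19 and Ece1 at 4.05 ± 0.17. The Rgs5 class had 3 higher, Ednra (3.44 ± 0.25), Cxcl12 (3.18 ± 0.45) and Cxcr4 (2.50 ± 0.63), and 3 lower, beside 35.2% (18.9% higher and 16.3% lower). Its Cxcr4 sums held 34 UMIs, beside 0 in the epicardial class, and the coronary level of Cxcr4 was higher in each heart library. Of the 3 lower genes of the Rgs5 class, Apln (-1.97) was lost without E12.5 replicate 1 (-1.58, adjusted p = 0.10) and Ece1 (-0.70) without any 1 of the 4 libraries of E14.5 and E16.5 (-0.63 to -0.48, adjusted p = 0.097 to 0.17). Cardiomyocytes had 2 higher, Ednra (3.59 ± 0.19) and Cxcl12 (1.41 ± 0.43), and 5 lower, beside 74.7% (40.2% higher and 34.5% lower). The cardiomyocyte fits of Aplnr and Cxcr4 gave standard errors of 940 and 290 and no call, while DESeq2 called both lower. In the Col1a1 class 2 were higher and 3 lower, beside 50% of genes (27.6% higher and 22.4% lower), and in the epicardial class 4 were lower and none higher, beside 49.8% (24.3% higher and 25.5% lower). Those 4 calls were all lost when barcodes that passed several gates were left out, where Ednrb went from -2.53 to -1.36 and Ednra from -1.33 to -0.92. For the other 2, Aplnr and Cxcr4, the epicardial class held 0 UMIs over the 6 heart libraries, so no fold is given. With single-gate barcodes only the E12.5 libraries kept an epicardial sum of at least 20 barcodes. In the E14.5 and E16.5 hearts 70 of 78, 66 of 73, 63 of 65 and 35 of 35 epicardial barcodes passed several gates. The Rgs5 class lost both E14.5 sums too, with 54 of 73 and 27 of 46. The part of these lost sums in the lost calls was not tested. The epicardial Ednra call was also lost without E12.5 replicate 2 (-1.34), E14.5 replicate 1 (-1.17), E14.5 replicate 2 (-1.06) or E16.5 replicate 1 (-1.23). The lower calls of Apln in cardiomyocytes and in the endocardial class were lost with single-gate barcodes too, at -0.17 (adjusted p = 0.93) and -1.04 (adjusted p = 1.00). So were those of Apln in the Col1a1 class (-1.06, adjusted p = 1.00) and in the Rgs5 class, which held 3 Apln UMIs in all (adjusted p = 0.13), the last also with DESeq2 (-1.92, adjusted p = 0.054), and that of Ece1 in the Rgs5 class (-0.79, adjusted p = 0.15). In the Col1a1 class the higher calls, Edn1 (0.91) and Ednra (0.81), were lost without E14.5 replicate 1 (0.79, adjusted p = 0.081, and 0.60, adjusted p = 0.093), and that of Ednra also without E14.5 replicate 2 (0.70, adjusted p = 0.053) or with single-gate barcodes (0.63, adjusted p = 0.16).

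Coronary barcodes with an Aplnr UMI after thinning were next compared with those without, in the 4 libraries of E14.5 and E16.5 with at least 20 barcodes on each side. They had 22, 22, 39 and 21 barcodes with the UMI, and Aplnr itself was left out of the fit. Only 1.96% of 8683 genes passed (0.518% higher and 1.44% lower). Of the other members Cxcr4 and Cxcl12 were lower with Aplnr, at -2.05 ± 0.46 (SE, adjusted p = 0.0078) and -1.58 ± 0.25 (SE, adjusted p = 4.0e-05) on the log2 scale. Of 10 arterial genes 5 were lower and none higher, with Gja4 at -2.65 ± 0.19, the notch target Hey1 at -1.31 ± 0.20, Unc5b at -1.52 ± 0.15 and the arterial connexin Gja5 at -3.05 ± 0.40. Their median was -1.12, against 0.00 over all genes tested.

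Tip cell genes were lower for 4 of 12 in the same split, among them Igfbp3 (-1.86 ± 0.15) and the growth factor gene Pgf (-1.94 ± 0.42). No venous gene of 6 passed. The replication genes Mcm2 (0.86 ± 0.22) and Pcna (0.48 ± 0.13) were higher, as 2 of 10 cell cycle genes. The count of genes that passed fell from 170 to 65 without E16.5 replicate 1 and to 107 without E16.5 replicate 2. Cxcl12 was lost with DESeq2 (-1.85, adjusted p = 0.69) and without E16.5 replicate 1 (-1.57, adjusted p = 0.078). Cxcr4 was lost without that library (-2.18, adjusted p = 0.16), without E16.5 replicate 2 (-1.82, adjusted p = 0.065) or without E14.5 replicate 2 (-1.50, adjusted p = 0.17). It was also lost with a floor of 5000 UMIs (-1.80, adjusted p = 0.10), and DESeq2 gave -2.25 with no adjusted p.

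With an Apln UMI after thinning against without, only 2 libraries had 20 barcodes on each side. Many barcodes on the side without held an Apln UMI before thinning, as the unthinned shares above show. There 16 of 8016 genes (0.2%, with 0.0624% higher and 0.137% lower) passed, with Cxcl12 the sole member (1.83 ± 0.26 SE, adjusted p = 2.5e-04), a call lost with DESeq2 (1.64, adjusted p = 0.30), and no gene of the tip cell, arterial, venous or cell cycle lists passed. With a minimum of 10 barcodes, chosen after the data were seen, 4 libraries entered and 90 of 8615 genes (1.04%, with 0.209% higher and 0.836% lower) passed. Cxcl12 was higher with Apln, by 1.20 ± 0.23 (SE, adjusted p = 0.0035), and Ednrb lower, at -1.40 ± 0.25 (SE, adjusted p = 0.0015). Pgf was higher (1.18 ± 0.26) and Igfbp3 lower (-0.77 ± 0.16), and 1 of 10 arterial genes, the elastic fibre gene Fbln5, was lower (-3.09 ± 0.72).

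Barcodes with a Cxcl12 UMI were too few for a minimum of 20. With a minimum of 5, also chosen after the data were seen, 7, 5, 21 and 8 barcodes entered and 5.95% of 9041 genes passed (2.32% higher and 3.63% lower). Of 10 arterial genes 9 were higher, with Gja4 at 2.82 ± 0.19, Gja5 at 2.76 ± 0.30, Hey1 at 2.19 ± 0.24 and Unc5b at 1.48 ± 0.21. Their median was 1.77, against -0.10 over all genes. Of 10 cell cycle genes 7 were lower, and 3 of 6 venous genes were lower, among them the venous transcription factor gene Nr2f2 (-2.46 ± 0.43), with Vwf higher (1.06 ± 0.33). Aplnr was lower with Cxcl12, at -1.77 ± 0.30 (SE, adjusted p = 6.0e-07), and Cxcr4 higher, at 1.76 ± 0.41 (SE, adjusted p = 0.0011). Ednrb was lower, at -1.74 ± 0.42 (SE, adjusted p = 0.0014). Apln did not pass in this split, at -0.25 ± 0.27 (SE, adjusted p = 0.72), although Cxcl12 was higher in the barcodes with an Apln UMI. With so few barcodes this split was not repeated at the minimum of 5, neither without single libraries nor under another alternative. The sole other fit dropped the library block and kept the minimum of 20. Its only sum with the UMI came from E16.5 replicate 1, so it was another comparison, with Ednrb at -1.34.

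The Aplnr and Cxcl12 splits share most of their barcodes, so they are not separate evidence. In every split a barcode without the UMI after thinning may have held it before. Mean UMIs per barcode with and without Aplnr were 25566 and 26251 in E14.5 replicate 1, 23395 and 21156 in E14.5 replicate 2, 21288 and 21224 in E16.5 replicate 1 and 17974 and 17939 in E16.5 replicate 2. With and without Cxcl12 they were 19880 and 26489, 18849 and 21635, 26270 and 20520 and 10845 and 18392, lower with Cxcl12 in 3 of the 4 libraries. A split of coronary barcodes by Cxcr4 could not be fitted at that minimum of 20.

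**Figure D4:**
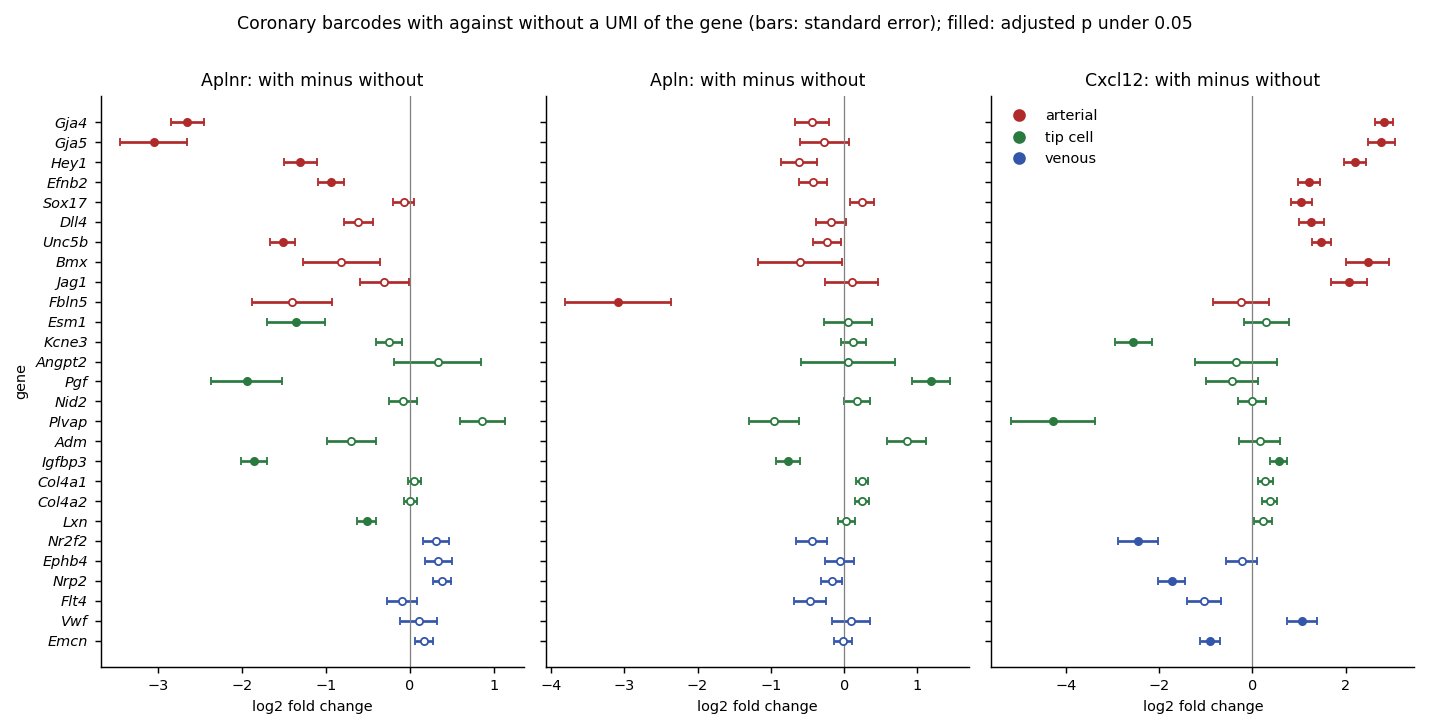
Log2 fold changes (x axis) with standard errors for arterial, tip cell and venous genes (y axis) between coronary barcodes with and without a UMI of Aplnr (left, 4 libraries), Apln (middle, 4 libraries, at least 10 barcodes a side) and Cxcl12 (right, 4 libraries, at least 5 barcodes a side). Filled points passed at an adjusted p under 0.05, and Gja4 lies at -2.65 in the left panel and at 2.82 in the right.

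Other genes with the most like pattern were sought over the 36 class sums of the 6 heart libraries, by Pearson's r of log2(CPM + 1), with counts scaled to the size of each sum, over 12405 genes. These sums share libraries and class gates, so r is a description only. Apln was most like St8sia4 (r = 0.969), Prdm1 (r = 0.967) and Nos2 (r = 0.964), and Aplnr most like Cldn5 (r = 0.966), Clec1a (r = 0.966) and Gm19590 (r = 0.964). Ednrb was most like Ccm2l (r = 0.956), Tie1 (r = 0.955) and Stab1 (r = 0.952), with Tie1 an endothelial receptor and Stab1 a scavenger receptor. Ednra was most like Acta2 (r = 0.945), Cspg4 (r = 0.933) and Myl9 (r = 0.897), which are known from smooth muscle and pericytes. Ece1 was most like Lbp (r = 0.949), Atp1b3 (r = 0.935) and Nmt2 (r = 0.932), and Ackr3 most like Adgrg6 (r = 0.914), H19 (r = 0.892) and Bace2 (r = 0.892). The closest genes to Cxcr4 were Pcdh19 (r = 0.899), Meox2 (r = 0.881) and Gnas (r = 0.875). Those to Cxcl12 were Zdhhc2 (r = 0.844), Dusp8 (r = 0.820) and Prdm6 (r = 0.812), and those to Edn1 Serf2 (r = 0.752), Clp1 (r = 0.719) and Zfp282 (r = 0.712), the weakest likeness of the set.

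The embryo libraries gave another picture of the endothelium, and with 1 or 2 libraries of another tissue they entered no test. Fabp4 was nearly missing there, so all Cdh5 barcodes were pooled, 174 in the E8.5 library and 442 and 399 in those of E10.5. Aplnr was at 1.03 in the E8.5 embryos and 1.41 and 1.34 at E10.5, near the coronary levels of later hearts. Apln was at 0.155 in the E8.5 embryos and 0.203 and 0.184 at E10.5. In Cdh5 barcodes of the E12.5 hearts Aplnr was at 0.0535 and 0.0670, and it was 0.745 and 0.665 in those of E16.5. Ednrb showed the reverse, at 0.0839 in the E8.5 embryos, 0.119 and 0.144 in those of E10.5 and 2.33 and 2.34 at E12.5. Stage and tissue cannot be told apart between the embryo and heart libraries.

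At P3 the 2 wells of the pooled matrix differed, and the labels give no animal for either. In the coronary class Apln was at 0.248 in the first well and 1.09 in the second, Aplnr at 0.724 and 2.52, and Cxcl12 at 1.39 and 2.96. Ackr3 in the endocardial class was at 0.728 and 2.30. Ednrb and Ece1 in that class were closer, at 5.37 and 6.68, and 5.84 and 4.75. Globin-gated barcodes at P3 carried Cdh5 at 1.53 and Fabp4 at 34.0 per 10000 UMIs, so that class was not used as background at P3.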

How the data were processed

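Single-cell suspensions of wild-type embryos and hearts were run on the 10x droplet platform by the authors, who deposited matrices of UMI counts per gene and barcode. Of the 10 matrices, 9 list all 737280 possible barcodes, cells or not, and the P3 matrix lists 10964. Processing notes of the submitters name Cell Ranger 2.1.1, Seurat 3.1.1 and mm10, and matrix headers give 3.1.0 and 3.0.0. The deposited counts were not normalized or corrected for doublets or free RNA. Barcodes with at least 2000 UMIs held 60675246 to 236885067 UMIs per matrix. The E8.5 replicate 1 library was not analysed here. A further sample is listed for E16.5 replicate 1, and no separate matrix of it was analysed.

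A barcode passed a gate with at least 2 UMIs of Tnnt2, Cdh5, Upk3b, Rgs5 or Col1a1 and more than the 99.9% Poisson quantile of free RNA, taken as 10% of its UMIs. Npr3 or Fabp4 needed 1 UMI beside Cdh5. Barcodes passing both the Tnnt2 and Cdh5 gates were left out, and no doublet caller was run. Counts were summed per class and library where at least 20 barcodes were present.

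Sums of the 6 heart libraries of E12.5 to E16.5 were tested with edgeR 4.0.16 in R 4.3.3 (TMM, filterByExpr, quasi-likelihood F test, Benjamini-Hochberg over all genes tested, threshold 0.05), checked on simulated data. Between classes the library was a block, and between stages of a class the model held stage only. Standard errors are the log2 fold change over the square root of F. Embryo and P3 libraries entered no test. Poisson and count-ratio intervals are exact at 95% and cover counting error only. Levels were computed with Python 3.11.15, numpy 2.4.6, scipy 1.17.1 and pandas 2.3.3. Promoters came from a RefSeq table that matched 8 of the 9 genes, with Aplnr not analysed here.

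The labels do not tie libraries of a stage to separate animals, so p-values measure the spread between these libraries. Same-numbered replicates did not deviate together (Pearson's r of gene deviations from -0.01 to 0.10), and the numbers were not used to pair samples. Alternatives were a floor of 5000 UMIs, 30% free RNA, single-gate barcodes, the study's mitochondrial ceilings, RLE size factors, DESeq2 1.42.0, no expression filter, other blocks and leaving out each library. Named genes are the 9 members, up to 4 genes of lowest p from each list and the 3 most like genes per member. Members and lists were chosen with earlier results of these data known.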

Additional observations from a re-analysis of the deposited data

Results flagged for a closer look

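For 2 genes the change from E12.5 to E16.5 differed between the coronary and endocardial classes in the interaction test over 6 heart libraries (edgeR quasi-likelihood test). The difference of the log2 changes was 7.51 ± 0.72 (SE) for Cxcl12 and -1.36 ± 0.22 for Ednrb. Each was called under all alternatives run that gave a value.

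For 5 genes the change from E12.5 to E16.5 passed with opposite signs in different classes, each class in its own fit, and the difference between those classes was not tested. Cxcl12 changed by 5.75 in the coronary class and by -5.94 in the Rgs5 class on the log2 scale. Edn1 changed by 1.64 in the endocardial class and by -4.31 in the epicardial class. Ackr3 changed by 1.02 in the endocardial class and by -3.20 in the Rgs5 class, and Ece1 by 0.82 and -2.00 in the same classes. Ednrb changed by 1.01 in the endocardial class and by -1.13 in cardiomyocytes, where its level was below 0.04 UMIs per 10000 in every heart library.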

How the results depend on the processing

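Of 129 tests of a member in a comparison, 79 passed, of which 56 passed under all alternatives run and 23 were lost under at least 1. Tests of the Cxcl12 split had a sole alternative, without the library block and with a single sum on the side with the UMI. None changed sign. Of 50 that did not pass, 11 passed under some alternative. Of 218 counts of genes passing, 192 lay within 1.5 times the reported one. Among them are refits of the Apln and Aplnr splits without a library that never entered them, which repeat the reported count. The cause of the other shifts was not tested. Allowing 30% free RNA gave 508 genes for the coronary and endocardial interaction instead of 962 and 1793 for the coronary stage change instead of 2830, and the coronary calls of Apln, Aplnr, Edn1 and Cxcr4 were lost. DESeq2 gave 353 and 1878 for the same, and for the stage change 2668 instead of 4338 (endocardial), 1254 instead of 2373 (epicardial), 1608 instead of 3235 (Rgs5) and 3664 instead of 5533 (Col1a1). It called 3 instead of 16 genes in the Apln split and 50 instead of 170 in the Aplnr split. With DESeq2 the stage calls of Aplnr (endocardial), Edn1 and Cxcr4 (coronary and Rgs5) and Ednra (cardiomyocyte) were lost. Single-gate barcodes gave 2147 instead of 6178 (epicardial) and 2364 instead of 4361 (Rgs5) against the other classes, 1712 for the Rgs5 stage change and 9 for the Apln split. In that setting the epicardial sums of E14.5 and E16.5 and the Rgs5 sums of E14.5 were too small to enter. Without a filter the Apln and Aplnr splits gave 100 and 268. A floor of 5000 UMIs gave 84 for the Aplnr split. With at least 10 barcodes, added after seeing the data, the Apln split gave 90.

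Leaving out each library in turn gave 480 to 1130 genes for the interaction (532 and 610 without E12.5 replicates 1 and 2, 480 without E16.5 replicate 1), 1169 to 2504 for the epicardial and 2107 to 3423 for the Rgs5 stage change (both lowest without E16.5 replicate 1), and 65 to 170 for the Aplnr split. The 170 repeats the reported fit of that split, since E12.5 replicate 1 was left out in turn but had never entered it.

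Replicate numbers did not pair the samples. With the replicate block the stage change gave 9285 genes in cardiomyocytes, 4567 endocardial, 2926 coronary, 2468 epicardial, 3352 Rgs5 and 5896 Col1a1. Without the library block the coronary against endocardial comparison gave 5701 instead of 5468. The Apln split gave 76 without the block, in a fit that also took in more libraries. These were E12.5 replicate 1, E14.5 replicate 1 and E16.5 replicate 2, each with a sum only on the side without the UMI.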

Other observations

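Outside the 6 classes, some members were found in barcodes of other gates, and these values entered no test. Ednrb in macrophage-gated C1qb barcodes was at 0.0664 and 0.0579 in the E12.5 hearts, 1.12 and 0.859 in those of E14.5, and 0.376 and 0.780 in those of E16.5, above the coronary level in each of the 4 later libraries. In the E10.5 embryos, Sox10 barcodes, a gate for neural crest, held Ednrb at 0.452 and 0.430, against 0.119 and 0.144 in all Cdh5 barcodes. Col1a1 barcodes of the same embryos held Cxcl12 at 1.04 and 1.05. Cdh5 barcodes with neither Npr3 nor Fabp4 held Ednrb at 1.86 and 1.86 in the E12.5 hearts, 2.77 and 1.97 in those of E14.5, and 2.45 and 2.89 in those of E16.5, between the endocardial and the coronary levels in every heart library.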
